A study of Mus musculus with 10 samples.

Results

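Cell adhesion genes of the adherens junction were followed in whole testes of 10 day old mice. The 9 genes were the cadherins Cdh1, Cdh2 and Cdh3, the catenins Ctnna1, Ctnnb1 and Ctnnd1, the nectins Nectin2 and Nectin3, and Cxadr. They were chosen by name: every probe set whose platform annotation named 1 of these genes, and no other gene, was taken. This gave 22 probe sets of the 22690 on the array, and all 9 genes had at least 1. A probe set is a group of short probes that reports 1 signal for a transcript, and a gene can have several.

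Cadherins are membrane proteins that bind their own kind on the neighbouring cell in the presence of calcium. Inside the cell, beta-catenin holds the cadherin tail, alpha-catenin ties that complex to actin, and p120-catenin keeps the cadherin at the membrane. Nectins are immunoglobulin-like adhesion molecules that start contacts without calcium and that often bind a different nectin on the other cell. In the mouse testis, N-cadherin joins Sertoli cells to each other and to germ cells, E-cadherin is known from undifferentiated spermatogonia, and nectin-2 on Sertoli cells meets nectin-3 on germ cells.

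The series compared 5 pools of SCARKO testes with 5 pools of control testes, 1 array each. In SCARKO mice the androgen response is removed selectively from Sertoli cells, the somatic cells that nurse the germ cells, while control mice are labelled AMHCre, for a transgene in which the AMH promoter drives Cre in Sertoli cells. Each pool held RNA from 1 testis of each of 3 mice, and SCARKO and control pools of littermates were made as pairs, numbered 1 to 5. The labels used here name no strain and no other allele.

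For the 8 arrays of pairs 1 to 4 the genotype in the title was the opposite of that in the description, while for pair 5 the labels matched. Groups follow the titles. The gene deleted in SCARKO is not analysed here. Rhox5, a homeobox gene that depends on androgen action in Sertoli cells, had signals of 7.9 to 12.7 in SCARKO pools and 86.6 to 241.4 in control pools, lower in all 5 pairs. Control pool 2 had the 86.6, the lowest control value. Over the 704 probe sets called across the array, control pool 2 was the control nearest to the SCARKO mean for 342 of them (48.6%), against 25 to 191 for each other control pool. Results that rest on pair 2 are therefore also given without it. Pool 2 was singled out on the same arrays and contrast, so results without pair 2 are a description and lend no added support. Signals were linear, and their trimmed mean was 100.03 on each of the 10 arrays.

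The tissue label was checked against marker lists. All 14 Sertoli cell markers on the array, all 10 spermatogonial and germ cell markers and all 7 Leydig cell markers passed the filter on dim probe sets, which removed mean log2 signals under 4.27 (a signal of 19.3). Of 9 markers of rete testis and epididymis epithelium, 1 passed. Markers were read by their brightest probe set. Between groups, 5 of 14 Sertoli markers were called lower and 2 higher in SCARKO, and 3 of 9 meiotic prophase markers were called lower. Over all 7973 genes, 3.52% were called lower and 2.17% higher. The summed signal of the Sertoli markers, which include Rhox5, was 6953 to 7588 in SCARKO pools and 7500 to 8076 in control pools. Most of that sum came from Clu (mean 2498 in SCARKO pools, 2580 in control pools) and Aard (2129 and 2100). Neither was called in its brightest probe set. The 14 Sertoli markers did not move together: 9 log2 fold changes were negative and 5 positive, with a median of -0.07. The summed signal of the meiotic markers was 1688 to 2238 in SCARKO pools and 2019 to 3048 in control pools. All 9 meiotic log2 fold changes were negative, with a median of -0.27, and 7 had an unadjusted p under 0.05 by limma. Of 40 measured markers of the germ cell, Leydig, myoid, endothelial and macrophage lists, 0 were called by limma. An unadjusted p under 0.05 was found for 10 of the 40, against 20.9% of all probe sets tested. A dimmer probe set was called for the myoid gene Mylk (log2 fold change -0.22, adjusted p = 0.039 by limma) and the Sertoli gene Clu (-0.11, adjusted p = 0.048), both named after their values were seen. The part of these shifts in the results below was not tested. In whole testis, fewer cells of a type and less RNA per cell cannot be told apart.

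Among the adhesion genes, the N-cadherin gene Cdh2 fell, by 0.50 on the log2 scale in the brighter of its 2 probe sets, and no Cdh1, catenin, nectin or Cxadr probe set passed the test. Of the 22 probe sets, 17 passed the filter on dim probe sets and 1 was called at an adjusted p under 0.05 (5.88%), a Cdh2 probe set. Over all 13576 probe sets tested, 5.19% were called, so the members' share was near the background. Their median log2 fold change, SCARKO minus control, was 0.04, and it was 0.01 over all probe sets tested. The median size of the change, sign ignored, was 0.09 for the members and 0.08 for all. At an unadjusted p under 0.05 there were 6 members (35.3%), against a background of 20.9%. Moving the same way in all 5 pairs were 5 members (29.4%), against 18.5%. Both counts include Cxadr 1452391_at, which passed the filter only through the SCARKO pools, and without it they were 5 and 4 of 16.

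**Figure D1:**
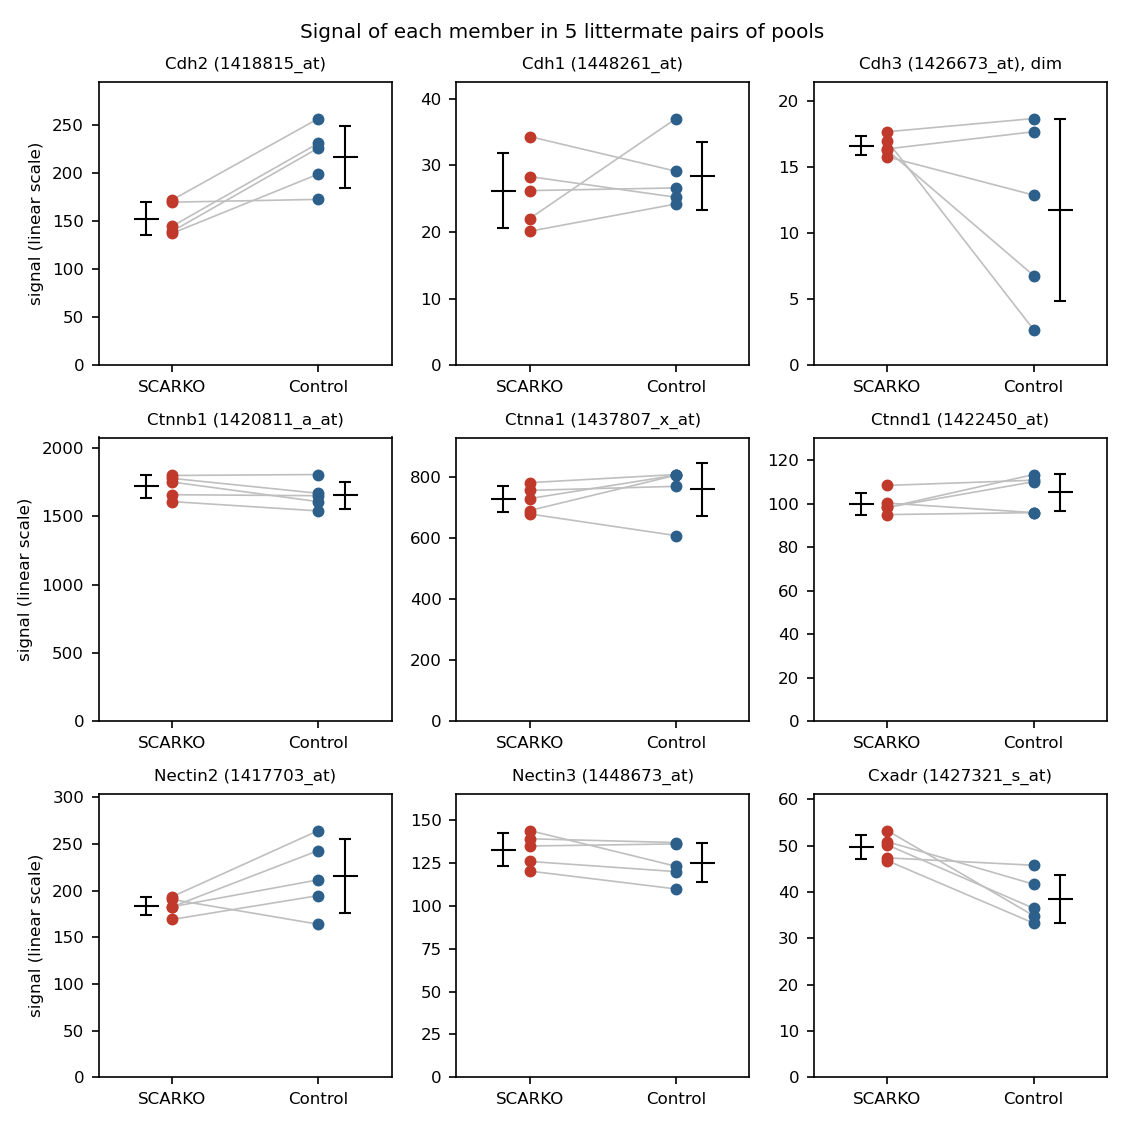
Signal on a linear scale, which starts at 0, for the brightest probe set of each of the 9 genes, with 1 point per pool, grey lines joining littermate pairs, and black marks for the mean and SD of 5 pools. SCARKO pools lie below all control pools for Cdh2 and above them for Cxadr, and the groups overlap in the other 7 panels, of which Cdh3 lay under the dim filter.

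Cdh2 encodes N-cadherin, the main cadherin of the Sertoli cell (gene ID 12558). Its brighter probe set, 1418815_at, had signals of 137.0, 169.4, 171.6, 144.3 and 139.0 in SCARKO pools 1 to 5, against 198.6, 172.3, 256.2, 230.6 and 225.7 in control pools 1 to 5. The groups did not overlap, but the highest SCARKO pool and the lowest control pool nearly met. Of the 17 members, 2 probe sets had groups that did not overlap (11.8%), against 4.52% of all probe sets tested.

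The mean was 152.3 ± 16.9 in SCARKO pools and 216.7 ± 32.1 in control pools (SD, n = 5 each). The log2 fold change was -0.50 (SE 0.09, 95% interval -0.70 to -0.31), or 1.42-fold lower in SCARKO, with an adjusted p of 0.0079 by limma. The fall was not of the same size in every pair. It was -0.54, -0.58, -0.68 and -0.70 in pairs 1, 3, 4 and 5, and -0.02 in pair 2. Without pair 2 the log2 fold change was -0.62 (adjusted p = 0.00029 by limma). With any 1 pair left out the call stood, at adjusted p between 0.00029 and 0.041. The call ended when dim probe sets were kept in the test (adjusted p = 0.13), with the same log2 fold change.

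The other Cdh2 probe set, 1449244_at, pointed the same way and did not pass. It had signals of 86.3, 102.9, 101.8, 109.2 and 80.6 in SCARKO pools 1 to 5, against 120.1, 90.3, 134.6, 118.0 and 131.3 in control pools 1 to 5. The groups overlapped because control pool 2 lay among the SCARKO values. Its log2 fold change was -0.30 (SE 0.11, 95% interval -0.54 to -0.06, adjusted p = 0.14), with 4 of 5 pairs lower and pair 2 at 0.19. Without pair 2, the 1 pair that went the other way, it was called, at -0.42 (adjusted p = 0.026 by limma). It was not called without any 1 other pair (adjusted p = 0.16 to 0.38 by limma). Both probe sets were designed on the same transcript record.

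Cdh1 encodes E-cadherin (gene ID 12550) and was dim. Its signals were 26.2, 28.3, 20.1, 22 and 34.3 in SCARKO pools, against 26.6, 25.2, 24.2, 37.0 and 29.1 in control pools. The groups overlapped, and pairs went both ways, from -0.75 in pair 4 to 0.24 in pair 5 on the log2 scale. The log2 fold change was -0.13 (SE 0.15, adjusted p = 0.67), and its 95% interval of -0.45 to 0.20 still held a fall close to that of Cdh2. Without pair 4 the value was 0.03.

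Cdh3 encodes P-cadherin, a classical cadherin of epithelia (gene ID 12560). Its probe set had signals of 15.8 to 17.7 in SCARKO pools and 2.7 to 18.7 in control pools, and the filter left it out. The SCARKO pools were close to each other and the control pools were scattered. In the fit without the filter its log2 fold change was 0.80 (adjusted p = 0.48).

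The catenins that hold N-cadherin to the cytoskeleton had no called probe set. Ctnnb1, which encodes beta-catenin (gene ID 12387), had 3 probe sets, with log2 fold changes of 0.06, 0.07 and 0.12 and none called. The brightest, 1420811_a_at, had signals of 1798.5, 1777.6, 1750.7, 1657.9 and 1607.6 in SCARKO pools, against 1805.4, 1668.0, 1606.7, 1650.5 and 1539.4 in control pools. The groups overlapped over most of their range. Its 95% interval of -0.02 to 0.13 on the log2 scale corresponds to a SCARKO level between 0.990 and 1.09 times control. After quantile normalization its log2 fold change was -0.01, so its sign depends on the scaling.

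The probe set 1430533_a_at of Ctnnb1 was higher in SCARKO in all 5 pairs. It averaged 434.1 ± 18 in SCARKO pools and 399.4 ± 16.2 in control pools (SD, n = 5 each), a log2 fold change of 0.12 (95% interval 0.03 to 0.21) that did not pass (adjusted p = 0.12). The 2 lowest SCARKO pools (414.6 and 416.3) lay under the highest control pool (421.7). The third probe set, 1450008_a_at, was also higher in all 5 pairs, at 666.6 ± 10.9 in SCARKO pools and 635.9 ± 19.1 in control pools, and did not pass (adjusted p = 0.33).

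Ctnna1 encodes alpha-catenin, the link to actin (gene ID 12385). Its probe set 1448149_at had signals of 595.3, 600.6, 586.0, 523.9 and 543.9 in SCARKO pools, against 625.1, 568.5, 621.2, 627.0 and 580.0 in control pools. The groups overlapped, with a log2 fold change of -0.09 (95% interval -0.19 to 0.02, adjusted p = 0.35). The brighter 1437807_x_at, whose suffix marks probes that can match other sequences, had -0.06 (95% interval -0.17 to 0.06). There control pool 1, at 608.6, lay apart from the other control pools at 770.1 to 808.7. The third Ctnna1 probe set stayed at or under a signal of 3.3 on all 10 arrays and was left out by the filter.

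Ctnnd1 encodes p120-catenin, which protects cadherins from uptake into the cell (gene ID 12388). Its signals were 98.3, 95, 100.3, 98.3 and 108.4 in SCARKO pools, against 113.4, 95.9, 95.9, 110.1 and 110.8 in control pools. The ranges overlapped, and the log2 fold change was -0.07 (95% interval -0.21 to 0.07, adjusted p = 0.59).

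**Figure D2:**
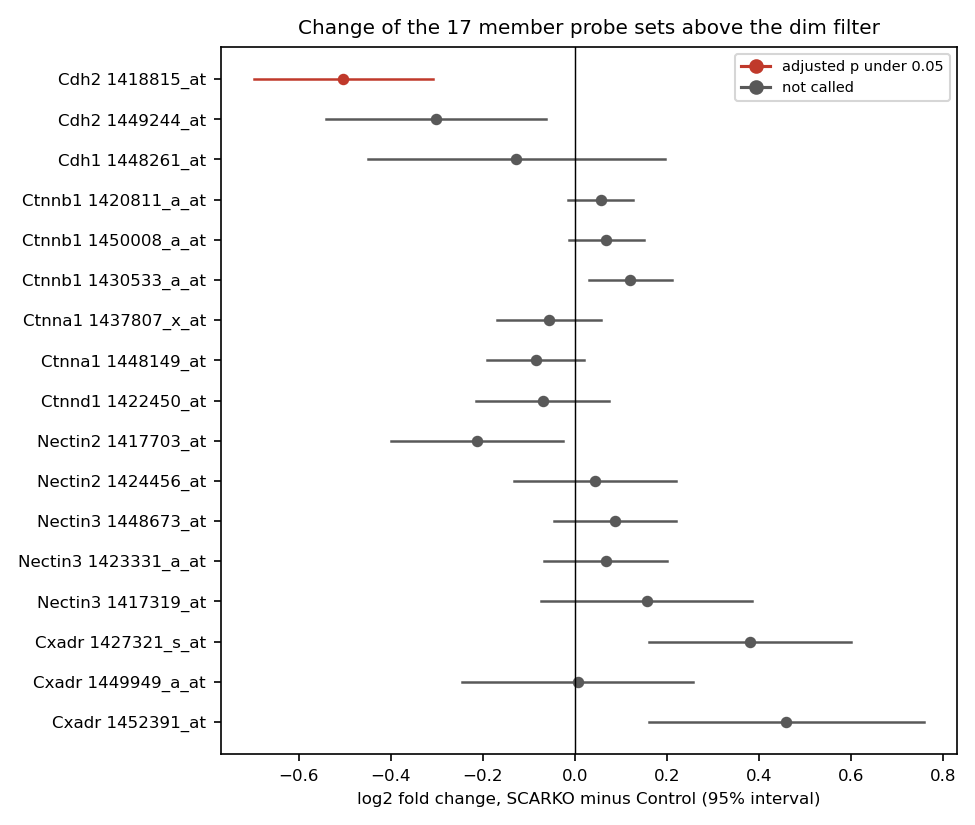
Log2 fold change, SCARKO minus control, with its 95% interval for the 17 member probe sets above the dim filter. Cdh2 1418815_at, in red, was the 1 called, at -0.50, and the 6 catenin points lie between -0.09 and 0.12.

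The change of Cdh2 was set against that of each other tested member within the pairs, using the brightest probe set of each gene. The mean difference, Cdh2 minus the other gene, was -0.56 log2 units for Ctnnb1, -0.43 for Ctnnd1 and -0.45 for Ctnna1. The difference was negative in all 5 pairs against Ctnnb1, Ctnnd1, Nectin3 and Cxadr, and in 4 of 5 against Cdh1, Ctnna1 and Nectin2. An exact two-sided sign-flip permutation test cannot give a p under 0.0625 with 5 pairs. It gave 0.0625 for Ctnnb1, Ctnnd1, Nectin3 and Cxadr, 0.125 for Cdh1 and Ctnna1 and 0.25 for Nectin2. Adjusted over the 7 comparisons, these exact p-values were 0.109 to 0.25. With 5 pairs this test could not pass 0.05, and it says nothing on whether Cdh2 differed from the other members.

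Nectin2 encodes nectin-2, which is found on the Sertoli cell side of contacts (gene ID 19294), and its 2 probe sets disagreed. The brighter, 1417703_at, had signals of 182.5, 182.6, 193.3, 190.5 and 169.0 in SCARKO pools, against 242.8, 211.5, 264.2, 163.9 and 194.6 in control pools. SCARKO pools were close together, while control pools were spread over a range that included them. The log2 fold change was -0.21 (SE 0.09, 95% interval -0.40 to -0.03, adjusted p = 0.18), lower in 4 of 5 pairs and higher, by 0.22, in pair 4. Without pair 4, the 1 pair that went the other way, it was called, at -0.32 (adjusted p = 0.028 by limma). It was not called without any 1 other pair (adjusted p = 0.24 to 0.46 by limma).

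The dimmer Nectin2 probe set, 1424456_at, had signals of 79.1, 91.8, 84.9, 69.2 and 74.4 in SCARKO pools, against 90.2, 81.7, 83.6, 72.0 and 61.6 in control pools. Its groups overlapped, and the log2 fold change was 0.04 (95% interval -0.13 to 0.22, adjusted p = 0.81). The 2 probe sets were designed on different transcript records of the gene.

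Nectin3 encodes nectin-3, the partner of nectin-2 on germ cells (gene ID 58998). Of its 5 probe sets, 3 were tested, with log2 fold changes of 0.07, 0.09 and 0.16 and adjusted p of 0.44 to 0.58. The brightest, 1448673_at, had signals of 138.9, 134.7, 125.7, 143.7 and 120.1 in SCARKO pools, against 136.7, 135.9, 119.8, 122.9 and 109.7 in control pools. SCARKO and control pools overlapped, and the 95% interval was -0.04 to 0.22. The other 2 probe sets, both designed on another transcript record, had signals of 2.7 to 14 in SCARKO pools and 2.0 to 9.2 in control pools and were left out by the filter.

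Cxadr encodes CAR, an immunoglobulin-like adhesion molecule of cell junctions that also serves as a virus receptor (gene ID 13052). Its probe sets did not agree. Among tested member probe sets, 1427321_s_at had the largest positive log2 fold change once 1452391_at was set aside. The latter passed the filter only through the SCARKO pools. Probe set 1427321_s_at had signals of 50.2, 47.4, 50.9, 46.8 and 53.3 in SCARKO pools, against 36.5, 45.8, 41.7, 33.3 and 34.9 in control pools. Every SCARKO pool was above every control pool, with control pool 2 the closest. The means were 49.7 ± 2.66 in SCARKO pools and 38.4 ± 5.18 in control pools (SD, n = 5 each).

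The log2 fold change of 1427321_s_at was 0.38 (SE 0.10, 95% interval 0.16 to 0.60), and the adjusted p of 0.052 missed the threshold. It was called at 0.46 without pair 2 (adjusted p = 0.027 by limma) and at 0.28 with 16 added before log2 (adjusted p = 0.0498), and it was not called without any 1 other pair (adjusted p = 0.12 to 0.18). The suffix of this probe set marks probes that transcripts of more than 1 gene can share. A second Cxadr probe set designed on the same transcript record, 1452391_at, passed the filter only through the SCARKO pools (mean log2 signal 4.57 in SCARKO pools and 4.11 in control pools, with 4.27 required). Its values are therefore given as a description and lend no support to the other probe set. It had signals of 22.5, 24.3, 22.7, 24.3 and 25.1 in SCARKO pools, against 15.9, 19.7, 14.6, 22.8 and 14.8 in control pools. The groups met at control pool 4, and 3 of 5 control values lay under the dim signal of 19.3. Its log2 fold change was 0.46 (SE 0.14, 95% interval 0.16 to 0.76, adjusted p = 0.081), with all 5 pairs higher.

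The remaining tested Cxadr probe set, 1449949_a_at, was designed on another transcript record and gave no difference past its spread. Its signals were 42.2, 35.3, 34.3, 36.5 and 37.5 in SCARKO pools, against 34.6, 42.6, 35.7, 43.0 and 30.3 in control pools. The pools mixed fully, with a log2 fold change of 0.01 (95% interval -0.24 to 0.26, adjusted p = 0.98). The fourth Cxadr probe set stayed at or under 6.0 on all arrays and was left out. In the fit without the filter, none of the 5 dim member probe sets was called by limma (adjusted p = 0.48 to 0.81), and 0 had an unadjusted p under 0.05.

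**Figure D3:**
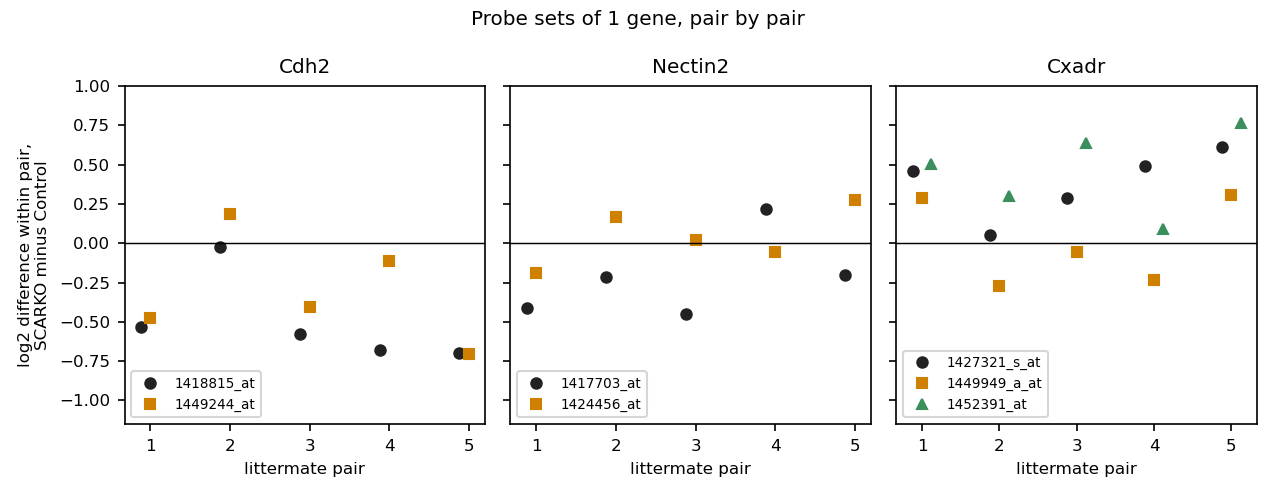
Log2 difference within each littermate pair, SCARKO minus control, for the tested probe sets of Cdh2, Nectin2 and Cxadr. Both Cdh2 probe sets are below 0 in pairs 1, 3, 4 and 5, the Nectin2 probe sets part, and 2 of 3 Cxadr probe sets are above 0 in all 5 pairs. Of these 2, Cxadr 1452391_at passed the filter only through the SCARKO pools and lends no support to the other.

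The members also differed in how much pools of 1 group varied. The coefficient of variation was larger among control pools than among SCARKO pools for 14 of the 17 probe sets (82.4%), and smaller for 3. Probe sets of the same gene were counted separately. The 14 include Cxadr 1452391_at (4.74% among SCARKO pools, 20.4% among control pools), which passed the filter only through the SCARKO pools. It was larger among control pools for 58.0% of all probe sets tested, and the difference between these shares was not tested. The steadiest of the 17 was a beta-catenin probe set, at 1.64% among SCARKO pools and 3.00% among control pools for 1450008_a_at. The E-cadherin probe set had a coefficient of variation of 21.3% among SCARKO pools, at signals near the dim filter. Precision is limited by the 5 arrays per group.

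The genes whose pattern over the 10 arrays was most like that of Cdh2 1418815_at were Jam3, Paqr7 and Pi4k2b. Likeness was the root mean square difference of log2 signals, each gene centred on its own mean, with the brightest probe set of 7972 other genes searched. It was 0.094 for Jam3, 0.096 for Paqr7 and 0.105 for Pi4k2b, against a median of 0.34 over the genes searched. The search used the same 10 arrays on which Cdh2 was called, so lower SCARKO signals in these genes follow from the choice and are a description. Jam3 encodes a junctional adhesion molecule and had signals of 128.5 to 157.1 in SCARKO pools and 180.0 to 220.4 in control pools. Paqr7, a membrane progestin receptor gene, had 85.8 to 101.4 in SCARKO pools and 101.6 to 154.8 in control pools. Pi4k2b, a phosphatidylinositol 4-kinase gene, had 40 to 56 in SCARKO pools and 57.4 to 86.3 in control pools.

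Other genes of adherens junctions were read from 7 lists with 167 genes, of which 96 were measured, each by its brightest probe set. Of these, 5 fell and 1 rose (6.25% called). Over all 7973 genes 5.69% were called, 3.52% lower and 2.17% higher in SCARKO, so this share too was near the background. The median log2 fold change was 0.02 over the lists and 0.02 over all genes. When dim probe sets were kept in the test, all 6 calls ended (adjusted p = 0.056 to 0.19).

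Of 7 other cadherin genes measured, Clstn1 fell and 6 were not called. Clstn1 encodes calsyntenin-1, a cadherin-superfamily protein known from neurons, and had 88.1 ± 7.03 in SCARKO pools and 199 ± 51.6 in control pools (SD, n = 5 each). Its log2 fold change was -1.13 (adjusted p = 0.00023 by limma), with -0.99 for its other probe set. Control pool 2, at 114.8, was again the lowest control.

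Among 3 measured nectin-like genes, Pvr fell and 2 were not called. Pvr encodes a nectin-like receptor, CD155, that binds nectin-3 on the opposite cell. Its signals were 37.9, 42.1, 47.3, 34.2 and 42.7 in SCARKO pools, against 55.7, 59.0, 57.0, 58.8 and 75.0 in control pools. All SCARKO pools were below all control pools, and control pool 2 did not stand near them. The log2 fold change was -0.58 (SE 0.10, adjusted p = 0.0063 by limma), lower in 5 of 5 pairs, and the call stood with any 1 pair left out. Its 4 other tested probe sets had -0.42, -0.42, -0.56 and -0.24, at adjusted p of 0.055 to 0.30.

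Of 9 measured other catenins and armadillo proteins, Pkp4 rose and 8 were not called. Pkp4 encodes plakophilin-4, a relative of p120-catenin found at junctions. It had 124.8, 131.1, 118.9, 124.5 and 127.0 in SCARKO pools, against 89.0, 113.4, 91.0, 100.2 and 110.6 in control pools, with every SCARKO pool above every control pool. The log2 fold change was 0.32 (SE 0.07, adjusted p = 0.017 by limma). The call ended without pair 1 (adjusted p = 0.066) or pair 3 (0.074), and its other probe set had 0.17 (adjusted p = 0.39).

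Of 21 linkers from the junction to actin, Evl, which encodes an actin polymerization factor of the Ena/VASP family, fell and 20 were not called. Evl averaged 196.1 ± 16.4 in SCARKO pools and 236.4 ± 27.4 in control pools (SD, n = 5 each), a log2 fold change of -0.27 (adjusted p = 0.046 by limma). Of 28 genes of cadherin turnover and junction signalling, Adam9, a membrane metalloproteinase gene, fell by 0.23 on the log2 scale (adjusted p = 0.037 by limma) and 27 were not called. Of 19 genes of the beta-catenin destruction complex and its nuclear partners, Gsk3a, a kinase gene of that complex, fell by 0.28 (adjusted p = 0.026 by limma) and 18 were not called. Each of the 3 was lower in 5 of 5 pairs, and none of these calls was secure. That of Evl ended without pair 1, 3, 4 or 5, that of Adam9 without any 1 pair, and that of Gsk3a without pair 1, 2, 3 or 4, at adjusted p of 0.0502 to 0.18. That of Evl also ended after quantile normalization (adjusted p = 0.0502). All 3 calls also ended without the littermate block (adjusted p = 0.054 to 0.22).

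None of the 9 measured genes of the CAR family and CAR-binding scaffolds was called by limma. Of the 9, 1 had an unadjusted p under 0.05, against 20.9% of all probe sets tested. The smallest p belonged to Mpdz, a multi-PDZ scaffold gene (log2 fold change 0.16, adjusted p = 0.18), and Lnx1, a ubiquitin ligase gene (0.18, adjusted p = 0.41). For Ptprf and Adam10, named after their values were seen, a probe set other than the brightest was called. Ptprf encodes a receptor phosphatase of junctions and had 0.34 in that probe set (adjusted p = 0.028 by limma) and 0.24 in its brightest (adjusted p = 0.062). Adam10 encodes the protease that sheds E- and N-cadherin and had -0.20 (adjusted p = 0.032 by limma) and -0.23 in its brightest (adjusted p = 0.057).

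**Figure D4:**
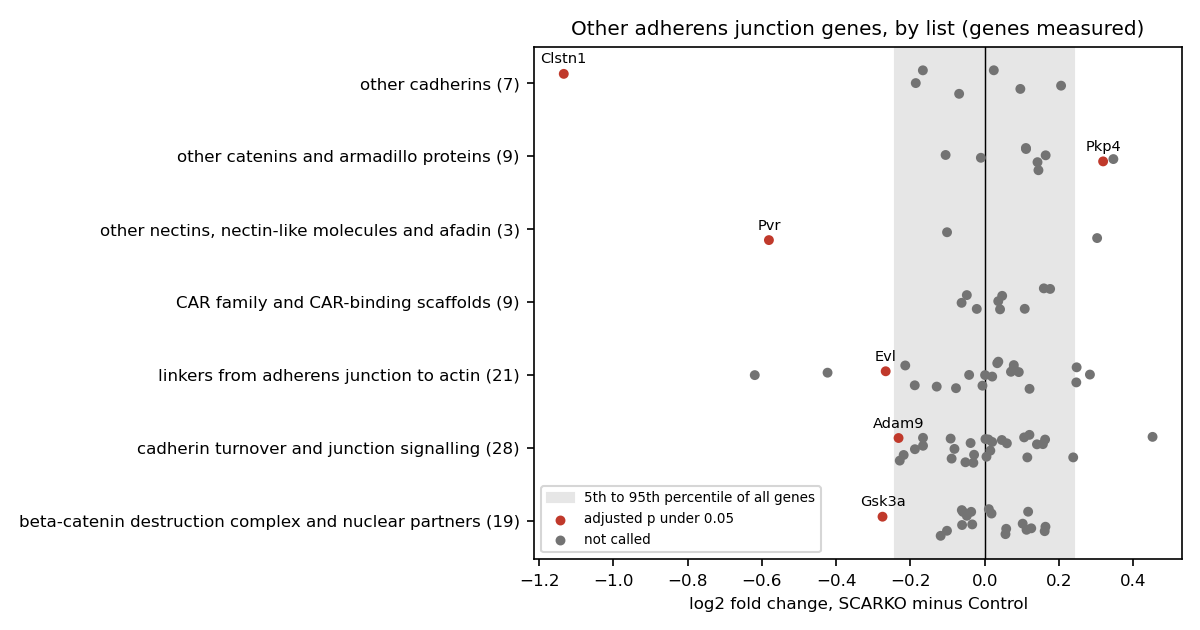
Log2 fold change, SCARKO minus control, of the 96 measured genes of 7 adherens junction lists, 1 point per gene with random vertical scatter, called genes in red, and grey shading from the 5th to the 95th percentile of all genes (-0.24 to 0.24). Clstn1 and Pvr lie farthest to the left among the called genes, and Pkp4 is the 1 called gene on the right.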

How the data were processed

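RNA of 10 pools of 3 mice each was hybridised to Affymetrix arrays. The deposited values were intensities, linear and not logged, with a row per probe set. MAS5 is named in the submitters' processing notes for 8 arrays, while for the pair numbered 5 no tool is named. Its version and settings are not stated in the labels. No counting depth exists for an intensity. Genes were named from the platform annotation, updated through gene IDs to RefSeq symbols (GRCm38.p6). No coordinates are given, since no build is named for the array.

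Signals were floored at 1 and turned to log2. The 64 array controls and the dimmest 40% of probe sets by mean log2 signal were left out, which kept 13576. Limma 3.58.1 in R 4.3.3 was fitted on all of them, with the pair as a block and a variance trend, and two-sided p-values were adjusted by Benjamini-Hochberg. The block follows the labels' protocol of littermate pools. Deviations of same-numbered pools correlated at 0.11 to 0.39 across probe sets. The highest correlation with a differently numbered pool of the other group was -0.01 to 0.11. For pair 4 the own and other values were nearly equal (0.1093 and 0.1091). The fit was tested on simulated data. Named genes are the members, every called gene of the lists (or the 2 with the smallest p), and the 3 genes most like a called member. Rhox5 is named as a check of the groups, and Ptprf, Adam10, Mylk and Clu were named after their values were seen. Members, lists and rules were chosen with earlier results of these data known. Alternatives were no block, other filters, 16 added before log2, quantile normalization, groups from the descriptions and leaving out each pair.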

Additional observations from a re-analysis of the deposited data

Results flagged for a closer look

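Among 34 sets of 5 pools (17 probe sets, 2 groups), 2 held a pool far from the others by Dixon's ratio of gap to range, whose critical value is 0.71. Chance marks about 1 in 20 such sets. For Ctnna1 1437807_x_at, control pool 1 had 608.6, with the nearest other control pool at 770.1 (ratio 0.83). For Nectin3 1417319_at, SCARKO pool 1 had 28.0, with the nearest other SCARKO pool at 34.5 (ratio 0.80).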

How the results depend on the processing

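The count of 1 called member probe set was also 1 without the littermate block, with the lowest 60% left out and after quantile normalization. It was 2 with 16 added before log2, and 1 to 3 with 1 pair left out. Limma called 0 members without the filter on dim probe sets. In that fit 5 of 22 had an unadjusted p under 0.05, against 3339 of 22626 over all probe sets. With groups from the descriptions limma called 0 members (0 of 17 unadjusted, against 611 of 13576 over all probe sets). Over all probe sets the count of 704 became 404 without the replicate block, 38 without the filter, 0 with groups from the descriptions (611 unadjusted), and 304 to 744 with 1 pair left out. The 6 called list genes became 0 without the filter (17 of 96 unadjusted) and 0 with groups from the descriptions (4 of 96 unadjusted). They became 2 to 6 with 1 pair left out. The mean change of Cdh2 lay below that of all 7 other members with 16 added, after quantile normalization and with any 1 pair left out. It lay below that of 0 of them with groups from the descriptions, which exchange the groups of pairs 1 to 4. Cdh2 already had the lowest log2 fold change of the tested members, and these settings share most arrays. This order is therefore a description and lends no support to a difference.

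Groups from the descriptions turned the sign of 14 of 17 member log2 fold changes, none of them called. They were 0.22 and 0.020 for Cdh2, 0.22 for Cdh1, 0.048 for Ctnna1 1448149_at, -0.031, -0.086 and -0.045 for Ctnnb1, 0.057 for Ctnnd1, 0.13 for Nectin2 1417703_at, -0.090, -0.023 and -0.035 for Nectin3, and -0.14 and -0.15 for Cxadr. Quantile normalization turned Ctnnb1 1420811_a_at (-0.0052) and Cxadr 1449949_a_at (-0.0066). Leaving out 1 pair turned Cdh1 (-0.22 to 0.029), Nectin2 1424456_at (-0.014 to 0.10) and Cxadr 1449949_a_at (-0.070 to 0.075). For 8 arrays the descriptions name the opposite group to the titles, so the signs turned under that setting follow from this exchange. With groups from the titles, Rhox5 was lower in SCARKO in all 5 pairs. The cause of the turns under the other settings was not tested. The block changed no call of a member.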
